A study of Bos taurus with 4 samples.

Results

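The regions described here are stretches of unplaced scaffolds that gave an ATAC-seq peak at both stages of rumen studied, in every library. ATAC-seq uses a transposase that cuts accessible DNA and tags it for sequencing, so that a peak marks a stretch with many cuts. Peaks of the 4 libraries that shared 1 bp or more were joined, and regions were selected on the peak calls alone: on a sequence other than the 29 autosomes and X, with a peak of all 4 libraries. This gave 881 regions among 5858 merged scaffold regions and 19749 merged regions in all. The samples were rumen of male Holstein cattle, wild type in the labels, with 2 libraries of the fetus at 90 days and 2 libraries of the adult at 2 years. The fetal tissue came from slaughterhouse material, and the labels do not tie a library to an animal, so the spread between replicates may be technical. In whole tissue, fewer cells of a type and less signal per cell cannot be told apart. The genes, repeats and sequence of these scaffolds were not analysed here, and markers of the tissue could therefore not be examined.

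The rumen is the large fermentation chamber of the ruminant stomach, lined in the adult by a stratified, keratinised epithelium with papillae. In the fetus this lining and its muscle layers are still being formed. Unplaced scaffolds are assembled pieces of genome that could not be assigned to a chromosome. They are often rich in satellite DNA, segmental duplications and other repeated sequence, since repeats are what breaks an assembly, and a short read from a repeat can match several places.

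A peak in all 4 libraries was found in 15.0% of merged scaffold regions, and in 0.849% of merged chromosomal regions (118 of 13891). Membership was set by these calls, so the values below describe the regions and the rule's own measures carry no test. The 4 lists differed in length, from 1878 (fetal 1) and 2788 (fetal 2) to 8795 (adult 1) and 13934 (adult 2) peaks. Of these peaks, 1339, 1833, 4070 and 4973 lay on scaffolds. A region needs a peak of the shortest list too, so the shares of 15.0% and 0.849% have different upper limits. Where 2 values are given for a stage below, they are those of replicate 1 and replicate 2 in that order. The background pileup, which is the number of fragments expected over a base, was 0.495 and 0.426 in fetal 1 and 2, against 1.37 and 1.61 in adult 1 and 2. The background was thus higher in both adult libraries than in both fetal ones.

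The regions lay on 427 scaffolds, 43.9% of the 972 that held any peak. A single region stood on 223 scaffolds, 2 regions on 95, 3 on 52, 4 or 5 on 33 and at least 6 on 24. The other way round, 658 of the 881 regions (74.7%) shared their scaffold with another one. Most of these scaffolds were short as far as their peaks reach: the furthest peak ended below 50000 bp on 344 of the 427, with a median of 18711 bp. A single scaffold reached beyond 1000000 bp. On the 427 scaffolds together the regions made up 25.1% of 3514 merged regions, and on 36 scaffolds the only merged region was one of them.

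Neighbouring regions on a scaffold were usually a few kilobases apart. Over 454 gaps the median was 4368 bp, with quartiles of 1029 and 11020 bp. Gaps under 1000 bp made up 23.8% (108) and gaps over 20000 bp 12.6% (57). The shortest gap was 61 bp, and the longest, 4722158 bp, was on the scaffold that reached furthest. Near the scaffold start, 208 regions (23.6%) began within the first 5000 bp and 13 within the first 200 bp.

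**Figure D1:**
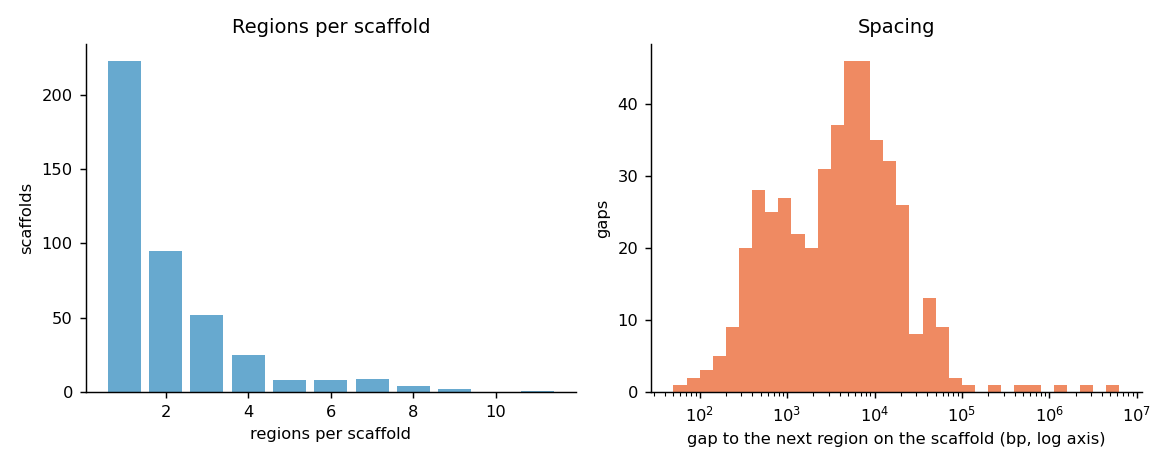
Left, bars give the number of scaffolds (vertical axis) that hold a given number of regions open in all 4 libraries (horizontal axis). Right, the histogram gives the 454 gaps between neighbouring regions of a scaffold in bp on a log axis. The tallest left bar is the 223 scaffolds with a single region, and the gaps spread around their median of 4368 bp.

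The scaffold with the most regions was chrUn_NW_020191637v1, where 11 of 18 merged regions were open in all 4 libraries. They ran from 3809 to 63912, with a median gap of 3700 bp. On chrUn_NW_020190434v1 there were 9 of 22, from 1776 to 138024, with a median gap of only 567 bp but 1 gap of 109714 bp. On chrUn_NW_020191110v1 there were 9 of 20, from 21411 to 135552, and the median gap was 9425 bp. These scaffolds therefore held their regions in different arrangements, tight groups in the second and wide spacing in the third. On chrUn_NW_020190359v1 there were 8 of 21, from 1201 to 23460, at a median gap of 2528 bp. On chrUn_NW_020190506v1 there were 8 of 28, from 2439 to 56779, at a median gap of 6390 bp. A pair of further scaffolds also held 8 and came after these by name alone.

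The merged regions had a median width of 484 bp, with quartiles of 328 and 722 bp and a range of 190 to 2726 bp. Merged scaffold regions with a peak in 1, 2 and 3 libraries were narrower, at medians of 111, 170 and 256 bp, and merging more peaks widens a region by construction. Chromosomal regions open in all 4 libraries had a median of 624 bp. In 664 of the 881 regions each library contributed exactly 1 peak. The other 217 held between 5 and 13 peaks. A library split its signal into several peaks in 9 and 72 regions in the fetal and 172 and 127 in the adult libraries. Fetal 1 peaks covered a median of 93.1% of the merged width, fetal 2 peaks 80.7%, adult 1 peaks 68.9% and adult 2 peaks 78.8%. Fetal 1 peaks thus covered the most of a region and were least often split.

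The widest region, on chrUn_NW_020192292v1 from 9208554 to 9211279, held 11 peaks, with pileups of 20 and 21 fragments in the fetal and 69 and 77 in the adult libraries. The next were 2675 bp on chrUn_NW_020190554v1 (from 59 to 2733) and 2592 bp on chrUn_NW_020192089v1 (from 77288 to 79879). The last of these held pileups of 129 and 100 in the fetal and 345 and 471 in the adult libraries. Great width therefore came with low as well as high pileups. The narrowest regions were 190 bp on chrUn_NW_020191620v1 (from 87679 to 87868), 192 bp on chrUn_NW_020190464v1 (from 50036 to 50227) and 192 bp on chrUn_NW_020191880v1 (from 4186 to 4377). Their fetal pileups ran from 10 to 22 and their adult pileups from 10 to 109. Across the 881 regions, width and pileup were weakly related in each library, with Spearman's rho between 0.270 and 0.324, as a description over regions that share library and depth.

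Within their own lists the regions ranked high. The fold enrichment is the authors' own ratio of pileup to local background, and its percentile is the place of a peak among all peaks of its library. Where a library had several peaks in a region, the one with the highest fold stands for it. The median percentile of the 881 regions was 72.3 and 80.3 in the fetal and 90.1 and 94.8 in the adult libraries. For the 118 chromosomal regions open in all 4 libraries it was 44.2 and 57.9 in the fetal and 80.2 and 86.4 in the adult libraries. Longer lists can hold more weak peaks, and both adult lists were longer than both fetal ones. In these percentiles, stage and list length therefore cannot be told apart. With lists of the same 1878 peaks, which leave 639 regions, the medians were 76.7 and 77.7 in the fetal and 71.6 and 74.7 in the adult libraries. Ranked by −log10 q instead, the fetal medians were 74.2 and 80.5 and the adult ones 89.7 and 94.8. The medians by fold were lower when ranked among scaffold peaks alone, at 63.4 and 71.5 in the fetal and 80.6 and 86.3 in the adult libraries. Among peaks with a −log10 q of at least 5, which leave 765 regions, they were 63.4 and 71.4, and 83.2 and 88.3.

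The strongest peaks of each list were mostly in these regions. Of the top 1% of peaks by fold, they held 20 of 20 and 27 of 28 in the fetal and 75 of 88 and 125 of 140 in the adult libraries. Of all peaks, they held 890 of 1878 and 966 of 2788 in the fetal and 1092 of 8795 and 1029 of 13934 in the adult libraries. Other scaffold regions held 0, 1, 9 and 10 of these peaks and chromosomes 0, 0, 4 and 5. The highest −log10 q of each entire list was in one of the 881 regions too: 3843 and 3300 in the fetal and 5190 and 6309 in the adult libraries. Not all regions were strong. In the lower 50% of their list by fold lay 192 and 104 regions in the fetal and 35 and 17 in the adult libraries.

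The pileup at the summit, recovered from fold and p-value, spanned a wide range. Its median was 42 fragments in fetal 1 (quartiles 23 and 84, range 6 to 4432) and 35 in fetal 2 (19 and 67, 6 to 3151). In adult 1 it was 63 (32 and 137, 8 to 4079) and in adult 2 103 (52 and 226, 9 to 4799). A few regions in each library thus held far more fragments than the typical one.

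The region with the highest mean percentile of fold lay on chrUn_NW_020190131v1 from 12227 to 12901. Its fold was 51.1 and 79.8 in the fetal and 132 and 115 in the adult libraries, and its pileups were 1024, 745, 1225 and 1755 fragments. The regions on chrUn_NW_020190534v1 from 5211 to 6037 and on chrUn_NW_020191637v1 from 13474 to 14285 came next. The former had folds of 50.4, 78.8, 132 and 114, and the latter 49.9, 78.3, 133 and 116. In each library these 3 folds lay close to the highest fold of the 881 regions, where the measure levels off as described below, while the fetal 1 pileups were 1024, 795 and 708 fragments. On chrUn_NW_020190534v1 and chrUn_NW_020191637v1 the summits also lay equally far from the region's start, by 455 bp in fetal 1 and 454 bp in each of the others. Whether these regions share sequence was not analysed here.

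The next regions by this ranking also had folds near the highest of each library. On chrUn_NW_020191592v1, from 3043 to 3918, the fold was 49.9, 76.3, 124 and 113. On chrUn_NW_020191196v1, from 7668 to 8474, it was 47.9, 77.4, 127 and 107. On chrUn_NW_020191830v1, from 53748 to 54507, it was 49.1, 77.2, 119 and 104. That region had larger pileups in fetal 1 (1609) than in adult 1 (945) or adult 2 (1393), although the adult libraries were deeper. The last of the top 10 were on chrUn_NW_020191113v1 (13628 to 14536), chrUn_NW_020191662v1 (172259 to 172935), chrUn_NW_020190497v1 (11080 to 11815) and chrUn_NW_020190716v1 (101 to 1000). Their folds were 42.2 to 46.0 in fetal 1, 64.9 to 75.3 in fetal 2, 106 to 134 in adult 1 and 100.4 to 113 in adult 2. At chrUn_NW_020190716v1 the order of the fetal libraries differed from the rest, with 396 fragments in fetal 1 and 590 in fetal 2.

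Folds levelled off towards a highest value that differed between libraries, 51.1, 79.8, 134 and 116 over the 881 regions. The ratio of pileup to the expected pileup at the same place never exceeded 53.7 and 89.2 in the fetal and 148 and 123 in the adult libraries over whole lists. Multiplied by the width of the narrowest peak in the list (186, 112, 67 and 81 bp), these limits came to 9992, 9995, 9902 and 9949 bp. The product was therefore nearly the same in the 4 libraries. Within 20% of the limit lay 99 and 78 regions in the fetal and 38 and 57 in the adult libraries. Among these the fold hardly distinguishes regions whose pileups differ, and fold compares places within a library and not libraries with each other.

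Ordered by pileup, other regions led, and they are named here after their values were seen. On chrUn_NW_020191326v1 from 32104 to 33417 the pileup was 4432 and 3151 in the fetal and 4079 and 4316 in the adult libraries, while the fold was only 19.0, 29.2, 38.6 and 26.0. On chrUn_NW_020190159v1 from 7095 to 8069 it was 3505, 2483, 3670 and 4799. On chrUn_NW_020191633v1 from 7668 to 9168 it was 3253, 2523, 3563 and 4583. At none of these did the adult pileups exceed the fetal ones by as much as the backgrounds did. The expected pileup lay above the library's background in 836 and 772 regions in the fetal and 537 and 667 in the adult libraries; this expectation can include the fragments of the region itself.

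**Figure D2:**
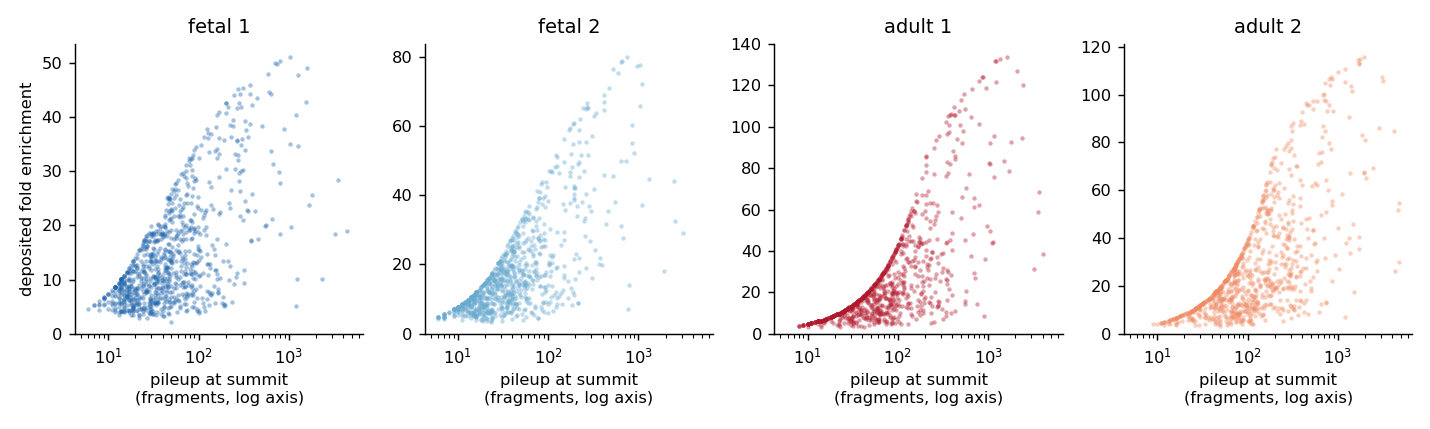
Each point is one of the 881 regions, with its pileup at the summit in fragments on a log axis and its deposited fold enrichment on the vertical axis, in 1 panel per library with its own vertical scale. Points stop at an upper edge of 51.1 and 79.8 in the fetal and 134 and 116 in the adult libraries, and the regions of highest pileup lie below it.

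At the other end, the region with the lowest mean percentile lay on chrUn_NW_020191079v1 from 60814 to 61275. Its fold was 4.12 and 3.90 in the fetal and 3.32 and 3.93 in the adult libraries, from pileups of 15, 11, 23 and 34 fragments. On chrUn_NW_020190857v1 from 75834 to 76204 the pileups were 40, 39, 30 and 50. On chrUn_NW_020191707v1 from 159068 to 159395 they were 31, 19, 54 and 59. These are small numbers: a pileup of 15 has a 95% counting interval of 8.40 to 24.7 (exact Poisson, counting error only). The remaining pair of the lowest 5 were wide regions made of 7 and 6 peaks, on chrUn_NW_020191703v1 (2338 to 3952) and chrUn_NW_020191373v1 (96994 to 98467). Their folds lay between 3.59 and 4.74 in all 4 libraries.

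The order of the regions by fold was closest between replicates. Spearman's rho across the 881 regions was 0.892 between the fetal replicates and 0.908 between the adult ones. Between stages it was 0.600 for fetal 1 and adult 1, 0.704 for fetal 1 and adult 2, 0.772 for fetal 2 and adult 1, and 0.810 for fetal 2 and adult 2. Fetal 2 was thus nearer than fetal 1 to both adult libraries. By −log10 q the values were 0.911 and 0.933 for replicates and 0.629 to 0.813 between stages, and by pileup 0.928 and 0.943, and 0.679 to 0.842. The 118 chromosomal regions open in all 4 libraries had 0.940 and 0.945 by fold for replicates, and 0.844 to 0.912 between stages. All these values describe regions that share library, depth and base composition, and no p is given for them.

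The spread between replicates is given beside the part that counting alone would give. The log2 ratio of pileup over background between fetal 1 and fetal 2 had an SD of 0.47 over the 881 regions, where counting alone gives 0.38. Between adult 1 and adult 2 it was 0.50, where counting gives 0.28. In regions with at least 50 fragments in both replicates the SD was 0.34 against 0.19 between fetal replicates (285 regions) and 0.42 against 0.18 between adult ones (530 regions). The pair of adult libraries also differed in level: adult 2 stood above adult 1, with a median log2 ratio of -0.45 for adult 1 to adult 2, while the fetal median was 0.09.

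**Figure D3:**
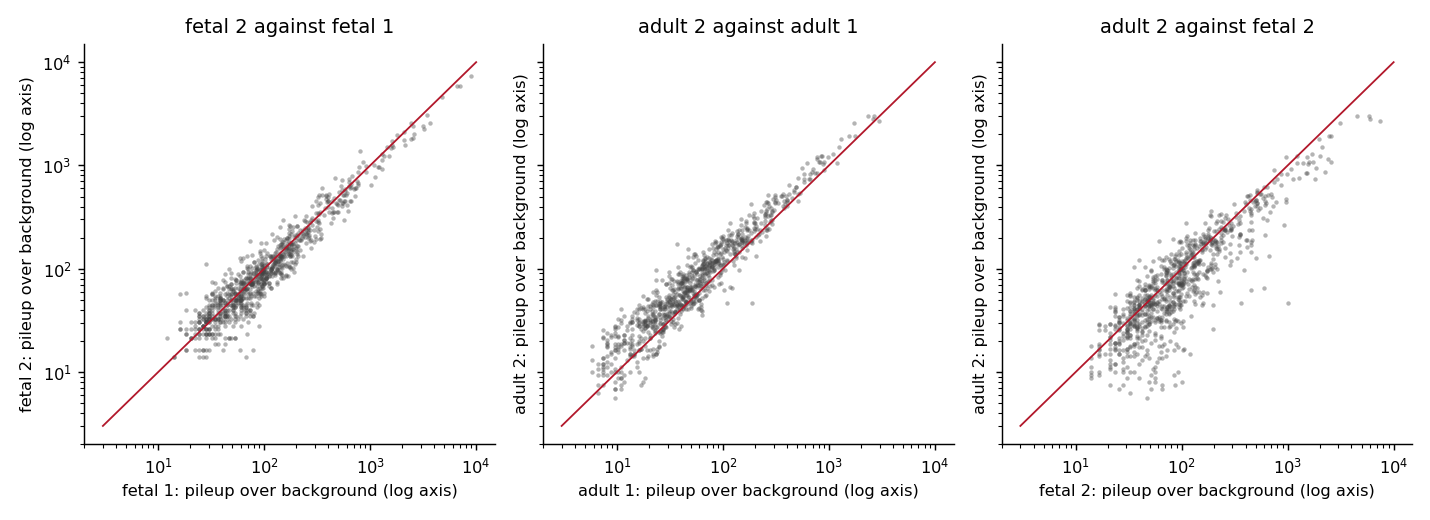
Each point is one of the 881 regions, placed by its pileup over the library's background in 2 libraries, both on log axes, and the line marks equal values. Fetal replicates lie along the line, adult 2 lies above adult 1, and in the panel of adult 2 against fetal 2 many points lie below the line, with the wider scatter that the rho of 0.842 by pileup describes.

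For any pair of libraries the median distance between summits was 4 to 10 bp. The rule asked only that peaks overlap, and these regions are a median of 484 bp wide. The median distance between the summits of adult 1 and adult 2 was 4 bp (quartiles 1 and 15), and between those of fetal 1 and fetal 2 it was 7 bp (2 and 27). Between stages the medians were 10 bp for fetal 1 and adult 1, 8 bp for fetal 1 and adult 2, 7 bp for fetal 2 and adult 1, and 6 bp for fetal 2 and adult 2. By these medians a fetal and an adult summit were about as close as the summits of the fetal replicates. The upper quartiles between stages were larger, at 46, 44, 31 and 31 bp in the same order, against 27 bp for the fetal replicates.

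In 324 regions (36.8%) all 4 summits fell within 10 bp, in 591 (67.1%) within 50 bp, and in 13 on the same base. At chrUn_NW_020190815v1 from 14122 to 14829 each of the 4 summits lay 338 bp from the region's start. In 132 regions the 4 summits spread over more than 200 bp, and in 57 of the 881 both adult summits lay more than 100 bp to 1 side of both fetal ones. An example of the latter is chrUn_NW_020192011v1 from 18722 to 19119, where the summits lay 120 and 119 bp from the region's start in the fetal libraries and 288 bp in both adult ones. Replicate summits also lay more than 100 bp apart, in 96 regions for the fetal and 73 for the adult libraries, and whether the 57 differ from that scatter was not tested.

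Summits agreed best where pileups were high. The regions were ordered by their mean log2 pileup over background and split into 4 groups. In the 220 strongest the median distance was 3 bp between fetal and 1 bp between adult replicates, 2 bp for fetal 2 and adult 2, and 3 bp for fetal 1 and adult 1. In the 221 weakest it was 16, 8, 15 and 23 bp. In the 118 chromosomal regions open in all 4 libraries, which were wider, the median was 45 bp between fetal replicates, 7.5 bp between adult ones and 23.5 to 58.5 bp between stages. The part of width and pileup in that difference was not tested.

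**Figure D4:**
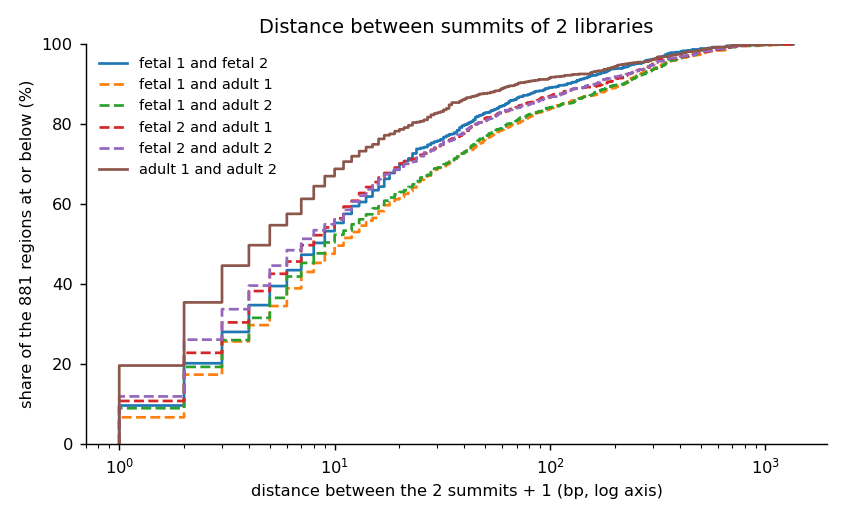
Each curve gives the share of the 881 regions (vertical axis, %) whose summits in 2 libraries lie at or below a distance (horizontal axis, bp plus 1, log scale), with solid lines for replicates and dashed lines for pairs across stages. The adult pair rises fastest, with 70.6% within 10 bp, and the other 5 pairs reach 51.5% to 59.4% there.

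Relative to background, most regions held fewer fragments in the adult than in the fetal libraries. The median pileup over background was 84.8 and 82.1 in the fetal and 46.0 and 64.0 in the adult libraries, so the groups of library medians did not overlap. The narrowest peak was 186 and 112 bp in the fetal lists and 67 and 81 bp in the adult ones. Pileup over background may therefore not be on the same scale in each library, and the part of this in the difference was not tested. The median of adult minus fetal was -0.56 on the log2 scale, with 90% of regions between -2.21 and 0.62. Both adult values lay below both fetal ones in 491 of the 881 regions (55.7%), against 52.5% of all 999 regions open in the 4 libraries. Both adult values lay above both fetal ones in 103 (11.7%), against 12.3%. The remaining 287 overlapped. The 881 are most of the 999, so these shares are close by construction. No p is given for these counts, since the rule used the same peaks and 2 against 2 libraries cannot give a two-sided exact permutation p below 0.333.

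By the rule, a region enters only if called in every fetal and every adult list. The part of this rule in the direction of the difference was not tested. The lowest pileups over background in the 881 regions were 12.1 and 14.1 in the fetal libraries against 5.84 and 5.59 in the adult ones. Among the 691 regions with both adult values at or above 20, the median difference was -0.39, with 340 regions lower and 103 higher in adult. This limit uses the adult values alone, so it drops regions that are low in adult by construction. The size of the difference rested on single adult libraries: the median was -0.91 without adult 2 (923 regions) and -0.36 without adult 1 (949 regions).

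The 118 chromosomal regions chosen by the same calls had medians of 55.5, 58.6, 54.0 and 54.1, in the order fetal 1, fetal 2, adult 1 and adult 2. Their median difference was -0.03, with 33 regions lower and 20 higher in adult. With each library centred on these chromosomal medians the scaffold difference was -0.48. The difference between scaffold and chromosomal regions was not tested.

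Regions were also compared by place, that is, by the percentile of a region's pileup among the 999 regions open in all 4 libraries. By place, both adult libraries stood above both fetal ones in 317 of the 881 regions and below in 306, with a median shift of 0.43 points. Over all 999 the shares were 39.6% above and 31.3% below. The chromosomal regions stood above in 79 of 118 and below in 7. The 881 regions are most of those ranked, so the ranking keeps their mean shift small. It does not fix the numbers above and below. Places use no background, and by place the chromosomal regions stood higher in adult, relative to the scaffold regions, in most cases; this difference was not tested.

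The difference is also given by strength, as a description, since the order by strength uses the same values and the lowest fetal values lie above the lowest adult ones. In the 221 weakest regions the median adult minus fetal log2 difference was -0.95, with 150 regions lower and 15 higher in adult. In the 220 strongest it was -0.45, with 127 lower and 17 higher. The groups between had -0.40 and -0.44. Across the 881 regions, Spearman's rho of this difference with width was 0.02, as a description.

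Among the regions named for their shift in percentile of fold, the largest rise was on chrUn_NW_020190491v1 from 16181 to 16483. Its fold was 2.18 and 4.02 in the fetal and 11.6 and 10.5 in the adult libraries. Its pileups of 50, 53, 177 and 223 were 101, 124, 129 and 139 times background, so that over background the groups stood much closer than by fold. On chrUn_NW_020191196v1 from 9130 to 9373 the fold went from 3.87 and 5.29 to 11.4 and 11.4, while the pileup over background was 204, 164, 137 and 203. The region from 7668 to 8474 named above lies on the same scaffold. On chrUn_NW_020191467v1 from 14728 to 16193 the pileup over background was 44.4, 44.6, 40.9 and 50.3, and the groups overlapped. On chrUn_NW_020190663v1 from 13322 to 13743 it was 26.2, 28.1, 28.5 and 36.0. On chrUn_NW_020192011v1 from 18722 to 19119 it was 26.2 and 39.9 in the fetal and 72.3 and 75.2 in the adult libraries. Of these 5 regions, this last one alone differed by more than 1 on the log2 scale over background (1.19).

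The regions with the most negative shift in percentile also had lower adult values over background. On chrUn_NW_020190374v1 from 15749 to 16372 the pileups were 30 and 20 in the fetal and 13 and 9 in the adult libraries, or 60.6, 46.9, 9.49 and 5.59 times background. On chrUn_NW_020191377v1 from 8606 to 8932 the values over background were 111, 84.4, 16.1 and 16.2. On chrUn_NW_020191644v1 from 45702 to 46062 they were 96.9, 84.4, 6.57 and 9.32, the largest fall of all 881 regions at -3.53 on the log2 scale. The adult pileups there were 9 and 15 fragments, with 95% counting intervals of 4.12 to 17.1 and 8.40 to 24.7. On chrUn_NW_020190604v1 from 6037 to 6506 the values were 94.9, 91.5, 16.1 and 9.94, and on chrUn_NW_020190359v1 from 4098 to 4398 they were 218, 150.1, 30.7 and 53.4. In each of these 5 regions both adult values lay below both fetal ones.

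The largest rises over background, named after their values were seen, were on chrUn_NW_020190414v1 from 2378 to 3116 and on chrUn_NW_020190209v1 from 78846 to 79489. The former had 28.3 and 110.3 in the fetal and 229 and 275 in the adult libraries, a log2 difference of 2.17. The fetal replicates differed there by more than the adult ones. The latter had 34.3, 61.0, 123 and 185, a log2 difference of 1.72. A region of large pileup had lower adult values: on chrUn_NW_020191640v1 from 10501 to 11700 it was 543, 432, 258 and 75 fragments, or 1096, 1013, 188 and 46.6 times background. The adult replicates differed there by more than the fetal ones, and both lay below both fetal values.

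Regions of one scaffold resembled each other in strength more than in their change between stages. Over the 658 regions on the 204 scaffolds with more than 1, the intraclass correlation, which is the share of variance that lies between scaffolds, was 0.46 for the mean log2 pileup over background. It was 0.19 for the adult minus fetal difference, 0.13 for log2 width, and 0.10 and 0.26 for the log2 ratios of the fetal and of the adult replicates. The stage difference thus grouped by scaffold no more than the ratio of the adult replicates did. Neighbours under 1000 bp apart differed in strength by a median of 0.64 on the log2 scale (108 pairs), those 1000 to 5000 bp apart by 0.71 (135 pairs), those 5000 to 20000 bp apart by 0.99 (154 pairs), those over 20000 bp apart by 0.96 (57 pairs), and regions on different scaffolds by 1.30. The stage difference varied by medians of 0.59, 0.65, 0.67 and 0.90 in the same bins and by 0.82 between scaffolds, so the furthest neighbours on 1 scaffold differed more than regions of different scaffolds.

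Of the 24 scaffolds with at least 6 regions, chrUn_NW_020191329v1 and chrUn_NW_020190567v1 had the lowest median differences, -1.86 and -1.82. Even there single regions went the other way, up to 0.89 and 0.96. On chrUn_NW_020191637v1, 8 of 11 regions were lower in both adult libraries and 0 were higher. The highest median, 0.15, was that of chrUn_NW_020192292v1, where 4 of 7 regions were higher and 1 was lower in adult. This is the scaffold whose peaks reach furthest, to 9218489 bp, and the median pileup over background of its regions was 38.4 and 49.3 in the fetal and 46.7 and 41.0 in the adult libraries. Scaffolds reaching under 20000 bp held 320 regions with a median difference of -0.45, those reaching 20000 to 50000 bp 309 with -0.68, those reaching 50000 to 100000 bp 166 with -0.78, and those reaching 100000 to 1000000 bp 79 with -0.48. The reach of peaks is only a lower bound for the length of a scaffold.

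**Figure D5:**
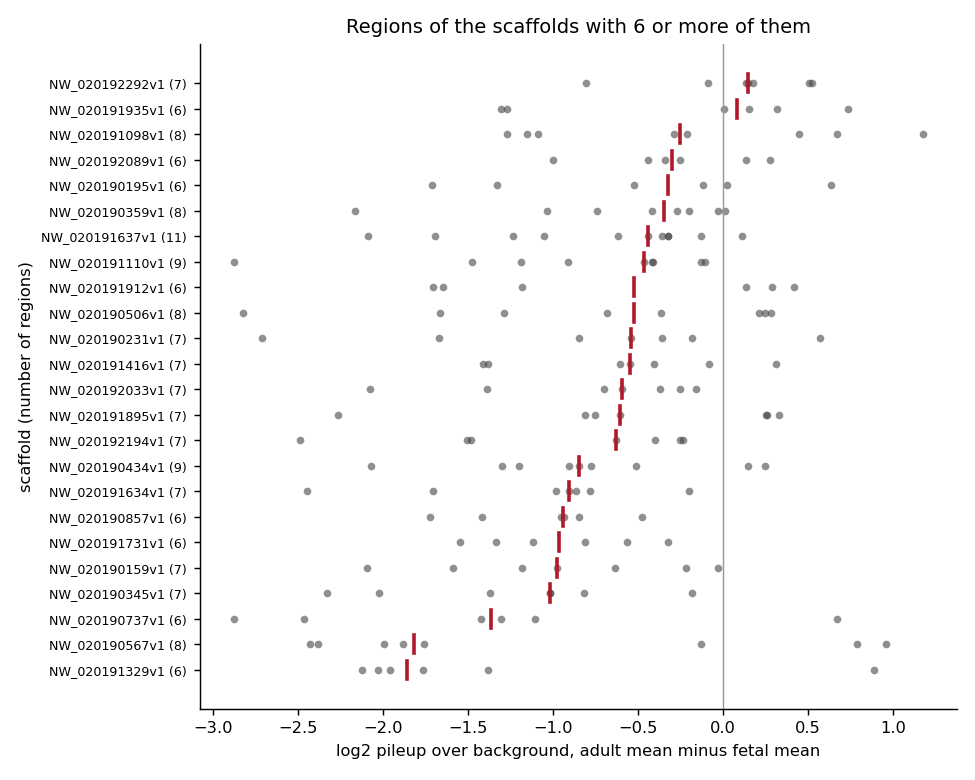
Each point is a region on one of the 24 scaffolds with at least 6 of them (rows, number of regions in brackets), placed by its log2 pileup over background, adult mean minus fetal mean. Red marks are scaffold medians, from -1.86 to 0.15, and points of the same row spread widely around them.

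The share of a library's scaffold peaks that fell in these regions was 66.5% in fetal 1 (890 of 1339) and 52.7% in fetal 2 (966 of 1833). It was 26.8% in adult 1 (1092 of 4070) and 20.7% in adult 2 (1029 of 4973). The means were 59.6% ± 9.7 (SD, n = 2) and 23.8% ± 4.3 (SD, n = 2). The share is built from the calls that chose the regions and is given with no test. The difference of 35.8 percentage points shrank to 2.39 with equally long lists, where each list holds its 1878 peaks of highest −log10 q.

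Just outside the rule were 623 scaffold regions with a peak in 3 of the 4 libraries. Of these, 437 lacked a peak in fetal 1 alone and 76 in fetal 2 alone, while 69 lacked only that of adult 1 and 41 only that of adult 2. Where fetal 1 lacked a peak, the median pileup over background was 39.9 in fetal 2, 31.4 in adult 1 and 37.3 in adult 2, below the 82.1, 46.0 and 64.0 of the regions open in all 4. Where adult 2 lacked one, the fetal medians were 72.7 and 49.3 and that of adult 1 was 11.7. Fetal 1, which has the shortest list, therefore decided membership most often. Few members were close to the limit of calling: the lowest of the 4 −log10 q values of a region was under 2 in 8 of the 881 and had a median of 22.2. That lowest value came from fetal 1 in 373 regions, from fetal 2 in 311, from adult 1 in 162 and from adult 2 in 35.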

How the data were processed

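The authors deposited 1 list of peaks per ATAC-seq library. Per the layout of the deposited lists, each peak has a fold enrichment, which is a ratio to a local background, a −log10 p, a −log10 q and a score. For the ATAC-seq reads, no source used here gives the peak caller, the aligner, the genome build or what was done with reads that match several places. The labels' extraction text describes bisulfite libraries, and the submitters' processing notes list Bismark 0.16.3, Bowtie2, FastQC 0.11.5 and Trimmomatic 0.36. From the fold and the p-value a whole-number pileup (k) and its expectation (m) were computed with fold = (k + 1)/(m + 1) and a Poisson p, matching within 0.0001 for 100% of peaks; 5 and 2 peaks of fetal 1 and fetal 2 had 2 solutions, and the larger was used. The most frequent m of a list is its background. Total read numbers are not in these lists, and fragments amplified by PCR are not independent, so intervals cover counting error only. Merging and recovery were tested on simulated data, whose pileups and p-values did not reach those of the strongest regions here. Python 3.11.15, pandas 2.3.3 and SciPy 1.17.1 were used. Coordinates count from 1. The labels' replicate numbers were taken from the titles.

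The regions and measures were chosen with earlier results of these data known. Named regions were the 10 highest and 5 lowest by mean percentile of fold, the 5 largest and 5 smallest adult minus fetal percentile differences among regions whose groups do not overlap, the 3 widest and 3 narrowest, and the 5 scaffolds with the most regions; others are marked as chosen after their values were seen. Alternatives were a −log10 q of at least 5, equally long lists, a cover of at least 50% of the region and joining within 500 bp. Ranking among scaffold peaks, other ranked measures and leaving out each library were also run. Ranking by pileup, the limit of 20 and the centring were added after the data were examined. A permutation test planned for the share of scaffold peaks is not reported, since that share comes from the calls that chose the regions.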

Additional observations from a re-analysis of the deposited data

How the results depend on the processing

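Of 218 values under the alternatives that were run, 185 stayed within a set limit. For rank agreements, those of replicates included, the limit was 0.092, the SD of the between-stage values. For counts, widths, gaps, shares of regions and summit distances it was 1.5 times the reported value. For the rest it was the spread between replicates. No difference between stages in the share of peaks or in log2 pileup over background changed sign. The order of the stages in median percentile of fold did turn: it was 72.3 and 80.3 in the fetal against 90.1 and 94.8 in the adult libraries, and 76.7 and 77.7 against 71.6 and 74.7 with equally long lists. The number of regions was 541 when each library had to cover at least 50% of the region, and it was 923 to 1352 with 1 library left out, the highest without fetal 1. The fetal minus adult difference in the share of scaffold peaks was 2.39 percentage points with equally long lists and 22.0 with the cover of 50%, and 34.9 to 46.6 without single libraries. The adult minus fetal log2 pileup over background was -0.91 to -0.36 without single libraries, lowest without adult 2, and the share of regions higher in adult 13.1% to 23.3%, which was 20.5% without fetal 2 and 23.3% without adult 1. The rank agreement of fetal 1 and adult 1 was 0.692 with equally long lists, against 0.600. Equally long lists and the cover of 50% leave fewer regions by construction. Leaving out a library asks for a peak in 1 library fewer, so more regions enter by construction. With 1 library left in a stage, its values overlap less easily with those of the other stage. The part of this in the share of regions higher in adult was not tested, and the set of regions changes too. The cause of all else was not tested either. No paired analysis was possible because nothing in the labels ties a fetal to an adult library. The total reads of the libraries are not in these lists, so what depth limits can be stated only as the lowest pileups among the 881 regions: 6 and 6 fragments in the fetal and 8 and 9 in the adult libraries.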
